A study of Homo sapiens with 6 samples.

Results

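Antisense RNAs are transcribed from the strand opposite to a named gene, either from a start site that lies back to back with the promoter of that gene or from a start site inside or beyond the gene. Many are spliced, stay in the nucleus and are present at lower levels than the messenger RNA of the gene they are named after. Some have been studied as regulators of their neighbours, others as by-products of open promoters. Antisense RNAs were followed here through the conversion of B cells into macrophage-like cells, together with the genes on the other strand (sense partners). A member was any row of the count table whose symbol ends in -AS1, with a mean raw count of at least 10 over the 6 libraries and with a row for the symbol without that ending. Of 30017 rows, 596 end in -AS1, 588 of these have a partner row, and 206 met the rule. Members were thus chosen by the mean level of the antisense RNA over all libraries, and no contrast between groups was used. A gene could still pass through a single group in which it was high, so the rule is not neutral to such changes. PRRT3-AS1 (mean count of 10.67) and KCTD21-AS1 (10.33) lay just inside the limit, and PAPPA-AS1 and ITPR1-AS1 (both 9.833) just outside. TRG-AS1 and JHDM1D-AS1 passed the limit on counts but have no partner row.

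The cells were the BLaER1-CTCF-mAID subclone, derived from a leukemia line of the B cell lineage. Exogenous CEBPA drives their conversion into induced macrophages (iMacs) once estradiol, IL-3 and CSF-1 are added, and a degron fused to CTCF leads to loss of the protein in the presence of indole-3-acetic acid (IAA), an auxin. The 3 groups hold 2 libraries each: untreated cells at 0 h (0 h), differentiating cells at 96 h that saw no IAA (96 h control), and differentiating cells kept in IAA from the start until 96 h (96 h CTCF-depleted). The 0 h cells received neither the differentiation factors nor IAA, all groups carry the degron and the CEBPA construct, and no line without the degron was given IAA, so effects of IAA and of CTCF loss cannot be told apart. The labels call the libraries replicates of 1 subclone, and p-values measure the spread between such cultures. Libraries were made from ribosome-depleted total RNA with a kit that keeps the strand. The strand setting of the counting is unknown, and reads from exons that overlap on opposite strands cannot be assigned with certainty if strand was not used.

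Total counts ranged from 9273470 to 12718780 per library. The summed level of 12 B cell markers was 3390 to 3411 CPM (counts scaled to the size of the library) at 0 h, 442 to 448 CPM at 96 h in control cells and 449 to 461 CPM in CTCF-depleted cells. That of 12 macrophage markers went from 45.1 to 51.2 CPM at 0 h to 5394 to 5658 CPM in control and 5308 to 5348 CPM in CTCF-depleted cells. Among the markers of other cell types, the 5 of T cells summed to at most 0.103 CPM at 0 h, 3.62 CPM in 96 h control and 5.28 CPM in CTCF-depleted cells, with CD3D and CD3G at 0 throughout, and the 5 erythroid and megakaryocyte markers to at most 1.86, 10.7 and 11 CPM, with HBB and HBA1 at 0. The 4 stroma markers fell in sum. They had 250 to 256 CPM at 0 h, 29.1 to 32.1 CPM in 96 h control and 32.7 to 32.8 CPM in CTCF-depleted cells. COL3A1 was at 0 throughout and COL1A2 at 0 h, where 2 of the 4 had more than 3 counts. The part of such cells in the results was not tested. In bulk samples such as these, fewer cells of a type and less RNA per cell cannot be told apart.

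The antisense RNAs were mostly scarce. Their median mean count was 41.25, against 421.5 for the partners, and the median pair had 10.5 antisense counts per 100 partner counts. The antisense RNA had fewer counts than its partner in 165 pairs and more in 41. Divided by the exon length of the annotation, which could be done for 196 pairs, the antisense RNA was above its partner in CPM per kb in 48 pairs at 0 h, 45 in 96 h control and 52 in CTCF-depleted cells. FAM211A-AS1, known today as the small nucleolar RNA host gene SNHG29, had the highest mean count (4977), with 505 and 494 CPM at 0 h, 415 and 395 CPM in 96 h control and 427 and 443 CPM in CTCF-depleted cells. HNRNPU-AS1, FGD5-AS1, ITGB2-AS1 and OIP5-AS1 were next. At the other end of the scale, 113 members had a mean count below 50. NPPA-AS1, TMEM72-AS1, C1QTNF9B-AS1, CRYM-AS1 and CKMT2-AS1 are among the 6 members whose partners had 0 counts in all libraries, which gives no ratio. A count of 0 allows up to 3 counts per library, or 0.267 CPM on average over the 0 h libraries.

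**Figure D1:**
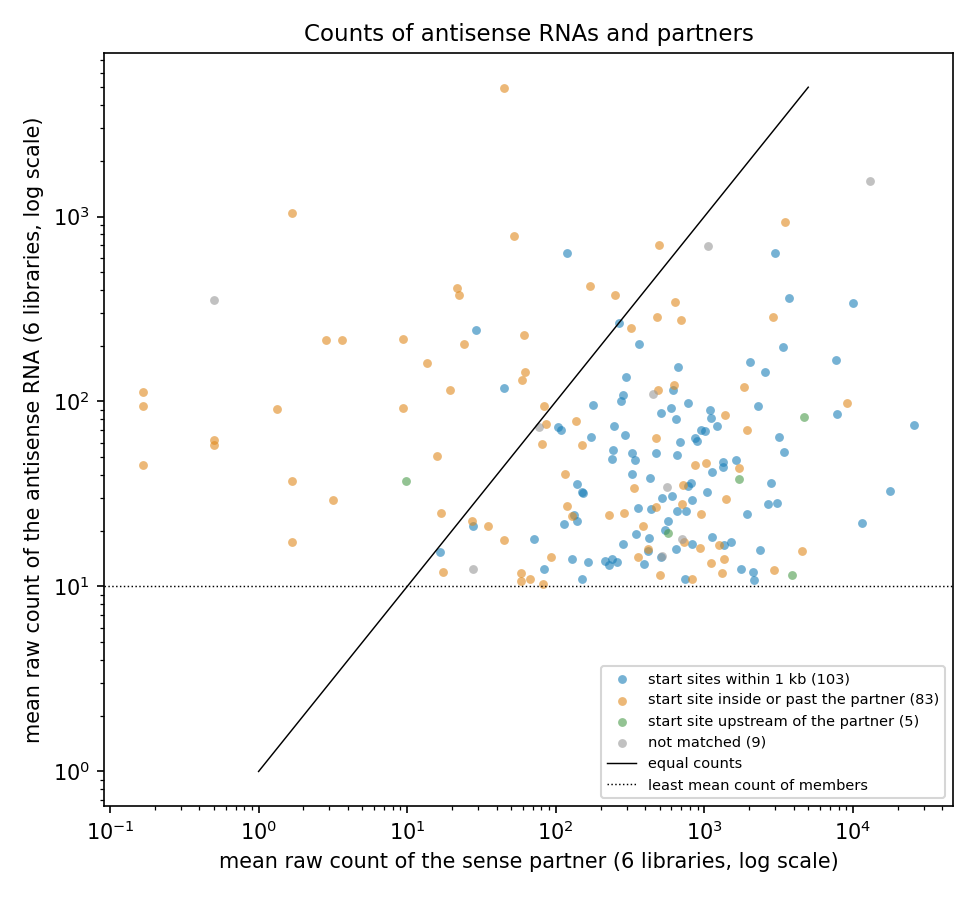
Mean raw count of each antisense RNA (vertical axis) against that of its sense partner (horizontal axis), both on a log scale, over the 6 libraries. Each point is 1 of the 200 pairs whose partner has counts, coloured by the position of the start sites; most points lie below the line of equal counts, and most of those above it start inside or past the partner.

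Positions were taken from GENCODE release 44 and RefSeq, both on GRCh38, for 196 of the 206 antisense RNAs, of which 43 are listed there under another symbol. The other 10 were not matched, so their strand and exons were not checked. The start sites of antisense RNA and partner lay within 1 kb of each other in 103 pairs. In 88 pairs the antisense RNA started inside the partner or past its end, and in 5 it started further upstream. Exons of antisense RNA and partner overlapped on opposite strands in 135 pairs. The level differed between these arrangements, which is given as a description: pairs with neighbouring start sites had a median of 6.86 antisense counts per 100 partner counts, and 3 of 103 antisense RNAs exceeded their partner, whereas antisense RNAs that start inside or past the partner had a median of 38.7 per 100, and 35 of 88 exceeded it. All 103 partners with a neighbouring start site had enough counts to be tested, while 18 of 88 partners of the second class did not.

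In 43 pairs, the RefSeq window from 250 bases before to 50 bases after the antisense start also holds the start of the partner, at a distance of 9 to 224 bases. These windows were rich in G and C, with a median of 70% (range, 56.7–82%), compared with 58.3% over all 27305 windows of the table. The bases between the start sites of 4 such pairs are shown because the pairs behave differently in the data: KCNJ2-AS1 and IL10RB-AS1 moved with their partners during transdifferentiation, SRP14-AS1 moved against its partner, and NDUFA6-AS1 rose after CTCF depletion while its partner was not called. Each runs 5′ to 3′ on the antisense strand (GRCh38.p14). Capitals mark CCAAT boxes and GC boxes (GGGCGG), on either strand.
KCNJ2-AS1, chr17:70169403-70169531, minus strand: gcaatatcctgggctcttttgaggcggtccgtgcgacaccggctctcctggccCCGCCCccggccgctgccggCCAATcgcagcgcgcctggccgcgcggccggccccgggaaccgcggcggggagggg
IL10RB-AS1, chr21:33266261-33266366, minus strand: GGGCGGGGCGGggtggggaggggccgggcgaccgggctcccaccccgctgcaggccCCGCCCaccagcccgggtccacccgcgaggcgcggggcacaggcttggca
SRP14-AS1, chr15:40039203-40039310, plus strand: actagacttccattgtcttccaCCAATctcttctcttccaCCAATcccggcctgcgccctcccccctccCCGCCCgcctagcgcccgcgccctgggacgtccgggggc
NDUFA6-AS1, chr22:42090773-42090932, plus strand: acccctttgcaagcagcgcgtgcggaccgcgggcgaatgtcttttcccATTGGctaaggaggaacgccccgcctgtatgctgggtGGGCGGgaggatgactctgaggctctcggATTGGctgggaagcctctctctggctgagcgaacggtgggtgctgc

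All 4 stretches hold a GC box and all but that of IL10RB-AS1 a CCAAT box. A GC box was found in 36 of the 43 windows (83.7%), in 102 of the 159 antisense windows in the table (64.2%) and in 44.6% of all windows. CCAAT was found in 37.2%, 34.6% and 35.7%, respectively. The core of the CTCF motif was searched in a strict form on both strands, in which the letters CCA are followed by any pair of bases and then by AGNNGGC. It was in 3 of 159 antisense windows (1.89%) and in 2.49% of all, and none of the 18 matched windows of antisense RNAs that rose after CTCF depletion and none of the 7 of those that fell held it. The shorter form CAGNNGGC, searched after the strict one had been seen, was in 59 antisense windows (37.1%) and in 30.2% of all, in 5 of the 18 and in 2 of the 7. The C/EBP letters TTGCNNAA were in 6.92% of antisense windows and 10.6% of all, and the PU.1 letters GAGGAAGT in 1.89% and 2.54%. These searches describe letters in a 300-base window and not binding.

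To find how antisense RNAs behaved during transdifferentiation, 96 h control cells were compared with cells at 0 h. A gene was called when its adjusted p was below 0.01 and its absolute log2 fold change above 0.6. Antisense RNAs moved in both directions with macrophage conversion: 46 rose (22.3%) and 26 fell (12.6%), compared with 25.4% and 22.9% of the 14758 genes tested. Their median log2 fold change was 0.21, against 0.015 over all genes. Of 186 partners tested, 54 rose and 45 fell. ITGB2-AS1, SH3RF3-AS1 and EPHA1-AS1 were among those that rose from counts at or near 0 in B cells, and RNF144A-AS1 had the most negative log2 fold change of those that fell. The libraries of the groups did not overlap for 96 members that were higher and 64 that were lower, including all 46 and 26 calls, compared with 43.9% and 42.8% of all genes. Libraries of 2 against 2 cannot reach a permutation p under 0.333, so the calls rest on the fit across all genes.

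ITGB2-AS1 lies inside ITGB2, the gene of the β2 integrin subunit that leukocytes use for adhesion (chr21:44921051-44929680, plus strand). It had 0.309 and 0.45 CPM at 0 h, 102 and 99.5 CPM in 96 h control and 157 and 154 CPM in CTCF-depleted cells. ITGB2 had 25.4 and 20.7 CPM, 454 and 450 CPM, and 492 and 475 CPM in the same libraries. Both rose during transdifferentiation, the antisense RNA by a log2 fold change of 7.97 ± 0.16 (SE, adjusted p = 5.3e-45) and ITGB2 by 4.31 ± 0.07 (adjusted p = 2.1e-51). The antisense RNA went from 1.72 to 22.3 counts per 100 ITGB2 counts. Its exons overlap those of ITGB2 over 12.1% of their length.

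SH3RF3-AS1 had 0 counts in both 0 h libraries and 27 counts in each 96 h control library, at least 9.14-fold higher when the 0 h level is set to the floor of 3 counts per library. Its partner SH3RF3, a ubiquitin ligase with SH3 domains, rose by 3.18 ± 0.09 (adjusted p = 1.4e-38). A further 4 antisense RNAs had 1 count in the 0 h libraries together. IL10RB-AS1, which starts 107 bases from the gene of the IL-10 receptor subunit IL10RB, had 65 counts in 96 h control cells, a 67.6-fold higher level with an exact Poisson interval of 11.7 to 2712, and IL10RB rose by 2.24 ± 0.08 (adjusted p = 1e-31). However, 79.6% of the exon length of IL10RB-AS1 overlaps exons of IFNAR2, the interferon receptor gene on the opposite strand (mean count of 1263), and the part of such reads in this result was not tested. EPHA1-AS1 was 95.7-fold higher (interval, 16.8–3822), and the ephrin receptor gene EPHA1 went from 0 counts to 69, at least 11.6-fold. BAIAP2-AS1 was 58.3-fold higher (interval, 10.0–2342), together with BAIAP2, which links membranes to actin. Without the 96 h control libraries, BAIAP2-AS1 averaged under 10 counts, so its rise is not independent of the selection. ZMIZ1-AS1 was 30.2-fold higher (interval, 5.00–1233), while ZMIZ1, a transcriptional coregulator, was not called (log2 fold change of -0.17 ± 0.05). All these intervals cover counting error only.

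Among the antisense RNAs with 0 h counts, RARA-AS1, which lies inside the gene of the retinoic acid receptor RARA, had 0.619 and 0.675 CPM at 0 h and 7.5 and 6.48 CPM in 96 h control cells, and rose by 3.40 ± 0.33 (adjusted p = 8.7e-14) with RARA (2.35 ± 0.08). GAS6-AS1 rose by 1.46 ± 0.10, from 15.7 and 14.7 CPM to 40.9 and 42.4 CPM. Its partner GAS6, a ligand of the TAM receptors on macrophages, went from 3 counts to 114, a 39.5-fold increase (interval, 13.2–195). C1RL-AS1 and C1RL, a protease related to complement C1r, start 906 bases apart and rose by 1.29 ± 0.11 and 1.73 ± 0.11. TMPO-AS1 rose by 0.92 ± 0.10 and TMPO, which encodes lamina-associated polypeptide 2, by 0.73 ± 0.05. For some antisense RNAs that rose, the partner was not called or had too few counts to test. WAC-AS1 rose by 1.18 ± 0.08, from 31.5 and 30.4 CPM to 71.7 and 68.2 CPM, while WAC, an adaptor in histone H2B ubiquitination, was at 0.41 ± 0.05, under the fold threshold. HNRNPU-AS1 rose by 1.27 ± 0.06 and HNRNPU, a nuclear RNA-binding protein, was at -0.22 ± 0.05. This row may not be a separate gene, since RefSeq lists its symbol as a name of HNRNPU itself. CDKN2B-AS1, also called ANRIL, rose by 1.97 ± 0.17, from 5.05 and 3.9 CPM to 16.8 and 17.9 CPM, while its partner CDKN2B, an inhibitor of cyclin-dependent kinases, had 0 counts in these 4 libraries.

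Several antisense RNAs fell with their partners. KCNJ2-AS1 starts 130 bases from KCNJ2, an inwardly rectifying potassium channel. It had 5.16 and 4.58 CPM at 0 h and 0.883 and 0.741 CPM in 96 h control cells, and fell by 2.56 on the log2 scale (SE of 0.37, adjusted p = 1.1e-08). KCNJ2 fell by 2.03 (SE of 0.08). Antisense counts per 100 KCNJ2 counts went from 4.77 to 3.27. The difference of the log2 fold changes was -0.52 ± 0.37, and this SE is too large to tell whether the ratio was kept. RNF144A-AS1 went from 6.5 and 6.0 CPM to 0.53 and 0.37 CPM and fell by 3.75 (SE of 0.39, adjusted p = 8.1e-13), and the ubiquitin ligase gene RNF144A by 3.65 (SE of 0.09). This antisense RNA averaged under a count of 10 without the 0 h libraries, so its fall is not independent of the selection. LEF1-AS1 fell by 1.40 (SE of 0.19), less than LEF1, a transcription factor of early lymphocytes, which went from 1010 and 1016 CPM to 105 and 113 CPM and fell by 3.22 (SE of 0.05). The difference in this pair was 1.82 ± 0.20 log2 units. PRKCQ-AS1 fell by 1.81 (SE of 0.22) and PRKCQ, the protein kinase C isoform of T cell signalling, by 1.56 (SE of 0.14). ACVR2B-AS1 fell by 2.24 (SE of 0.35) and the activin receptor gene ACVR2B by 1.29 (SE of 0.08). OIP5-AS1, EPB41L4A-AS1 and CEBPZ-AS1 fell by 0.82 (SE of 0.07), 1.03 (SE of 0.13) and 0.93 (SE of 0.07) with no call for the partner or, for EPB41L4A, too few counts to test. CEBPZ lay close to the fold threshold, at -0.60 to -0.56 over 9 alternative fits, of which 2 called it. The row CEBPZ-AS1 was not matched to a position, so its strand was not checked and it may not be an antisense gene.

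In total, 24 pairs rose together, 12 fell together and 8 were called in opposite directions. In 20 further pairs the antisense RNA was called and the tested partner was not, in 55 it was the other way round, and in 8 the partner could not be tested. Among the 36 pairs called in 1 direction, the antisense RNA had the larger log2 fold change in 23. Scarcer genes have larger standard errors and need a larger change to be called, so this number does not compare how strongly they responded. The pairs were also described by the position of the start sites. Over the 103 pairs with neighbouring start sites, Pearson's r between the log2 fold changes was 0.68 (Spearman's rho of 0.52), with 22 pairs called in 1 direction and 2 in opposite directions. Over the 70 tested pairs in which the antisense RNA starts inside or past the partner, r was 0.39 (rho of 0.17), with 11 and 6 pairs. The correlations are across genes that share the same libraries, are given as descriptions, and their difference was not tested. Over the 45 pairs with neighbouring start sites and no exon overlap, r was 0.75 (rho of 0.47). Over the 7 tested pairs without exon overlap in which the antisense RNA starts inside or past the partner it was 0.91 (rho of 0.43). Over the 43 pairs that share a promoter window, r was 0.48 (rho of 0.33). The order of r between the arrangements turned among pairs without exon overlap, few of which belong to the second class, but the order of rho did not. Over members with a mean count of at least 50, r was 0.43 (44 pairs) and 0.24 (33 pairs), with 7 and 7 pairs called in 1 direction and 1 and 3 in opposite directions.

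**Figure D2:**
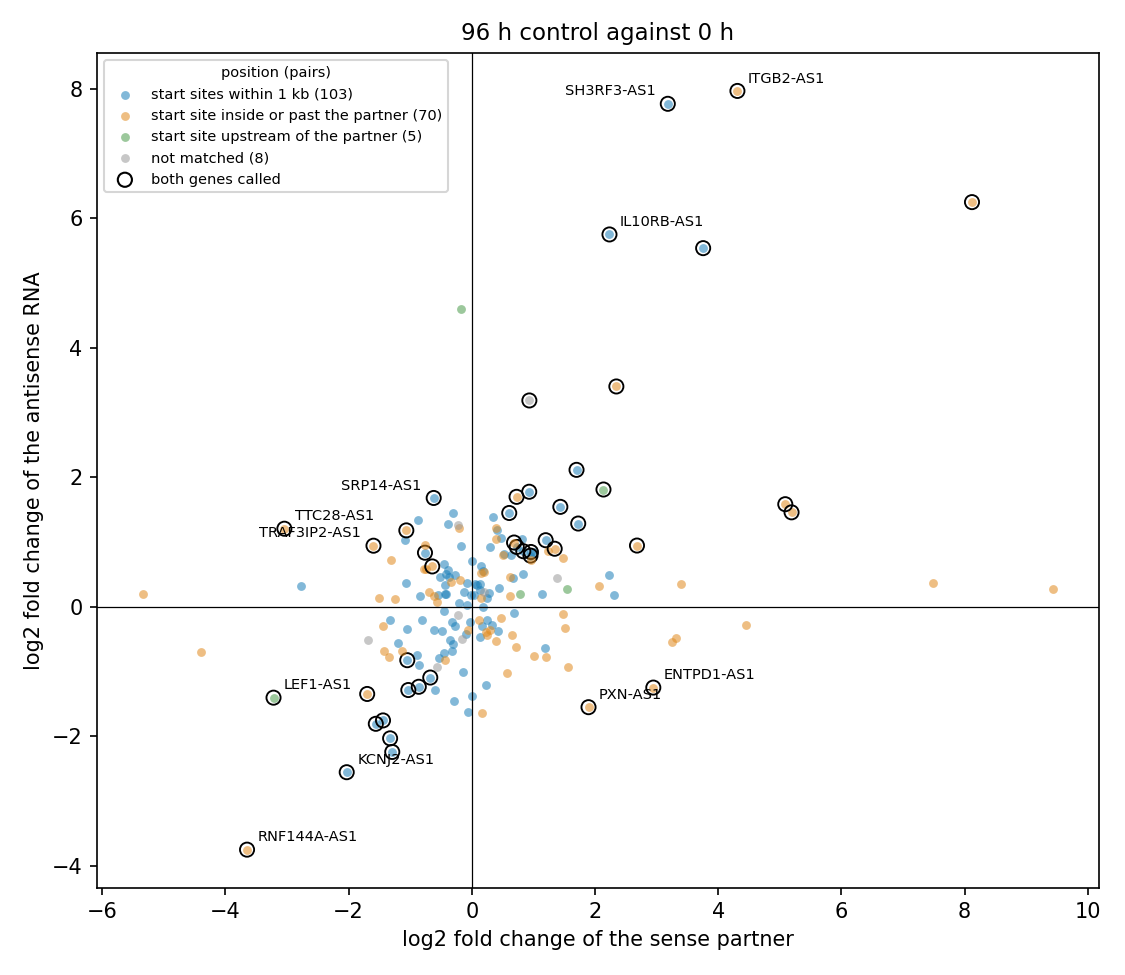
Log2 fold change of antisense RNA (vertical axis) and of sense partner (horizontal axis) at 96 h control against 0 h, for 186 pairs with a tested partner, coloured by position. Circled pairs are those with both genes called (44); many blue points with neighbouring start sites run along the diagonal, while the circled pairs in the upper left and lower right quadrants are the 8 called in opposite directions.

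The 8 pairs called in opposite directions include paxillin (PXN), an adaptor of focal adhesions. PXN-AS1, which starts past the end of the gene and overlaps its exons over 37.8% of its length (chr12:120201274-120213233, plus strand), had 3.3 and 3.83 CPM at 0 h and 1.32 and 1.11 CPM in 96 h control cells, while PXN had 34.9 and 33.8 CPM and 122 and 133 CPM. The antisense RNA fell by 1.55 (SE of 0.33, adjusted p = 3.2e-05) and PXN rose by 1.89 ± 0.07 (adjusted p = 3.5e-31), so that the number of antisense counts per 100 PXN counts went from 10.5 to 0.957. ENTPD1-AS1 and ENTPD1, the ectonucleotidase CD39 of leukocytes, moved the same way: the antisense RNA fell by 1.25 (SE of 0.41) and ENTPD1 rose by 2.95 ± 0.22, and 125 antisense counts per 100 became 6.73. Without the 0 h libraries, ENTPD1-AS1 averaged under 10 counts, so its fall is not independent of the selection. The other 6 pairs had a rising antisense RNA over a falling gene. TRAF3IP2-AS1 rose by 0.94 ± 0.11 from 17.6 and 16.3 CPM to 28.7 and 36.4 CPM, while TRAF3IP2, an adaptor of the IL-17 receptor, went from 111 and 113 CPM to 36.7 and 37.2 CPM and fell by 1.60 (SE of 0.08). The exons of this pair do not overlap. TTC28-AS1 rose by 1.21 ± 0.27 and TTC28 fell by 3.04 (SE of 0.50). TTC28 was scarce (mean count of 15.8). Its log2 fold change ranged from -4.20 to -2.42 over the 9 alternative fits, all of which called it. SRP14-AS1, one of the pairs whose sequence is shown, had 1.13 and 1.73 CPM at 0 h and 4.59 and 4.91 CPM in 96 h control cells and rose by 1.68 ± 0.30 (adjusted p = 1.5e-06), while SRP14, a subunit of the signal recognition particle, went from 148 and 151 CPM to 100 and 94.4 CPM and fell by 0.62 (SE of 0.06), close to the fold threshold. GMDS-AS1, which starts 148 bases from GMDS, an enzyme of GDP-fucose synthesis, rose by 0.84 ± 0.25 while GMDS fell by 0.76 (SE of 0.11). GABPB1-AS1 rose by 0.62 ± 0.09 over the transcription factor subunit gene GABPB1 (-0.64 ± 0.08), and LIPE-AS1 by 1.18 ± 0.35 over the lipase gene LIPE (-1.06 ± 0.16). Exons overlap in 5 of the 8 pairs. The number of opposite pairs was 5 without 0 h replicate 2 and 5 with DESeq2; the antisense calls of PXN, TTC28, TRAF3IP2 and SRP14 were made in all 9 alternative fits, those of LIPE, GMDS and GABPB1 in 6 and that of ENTPD1 in 4.

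**Figure D3:**
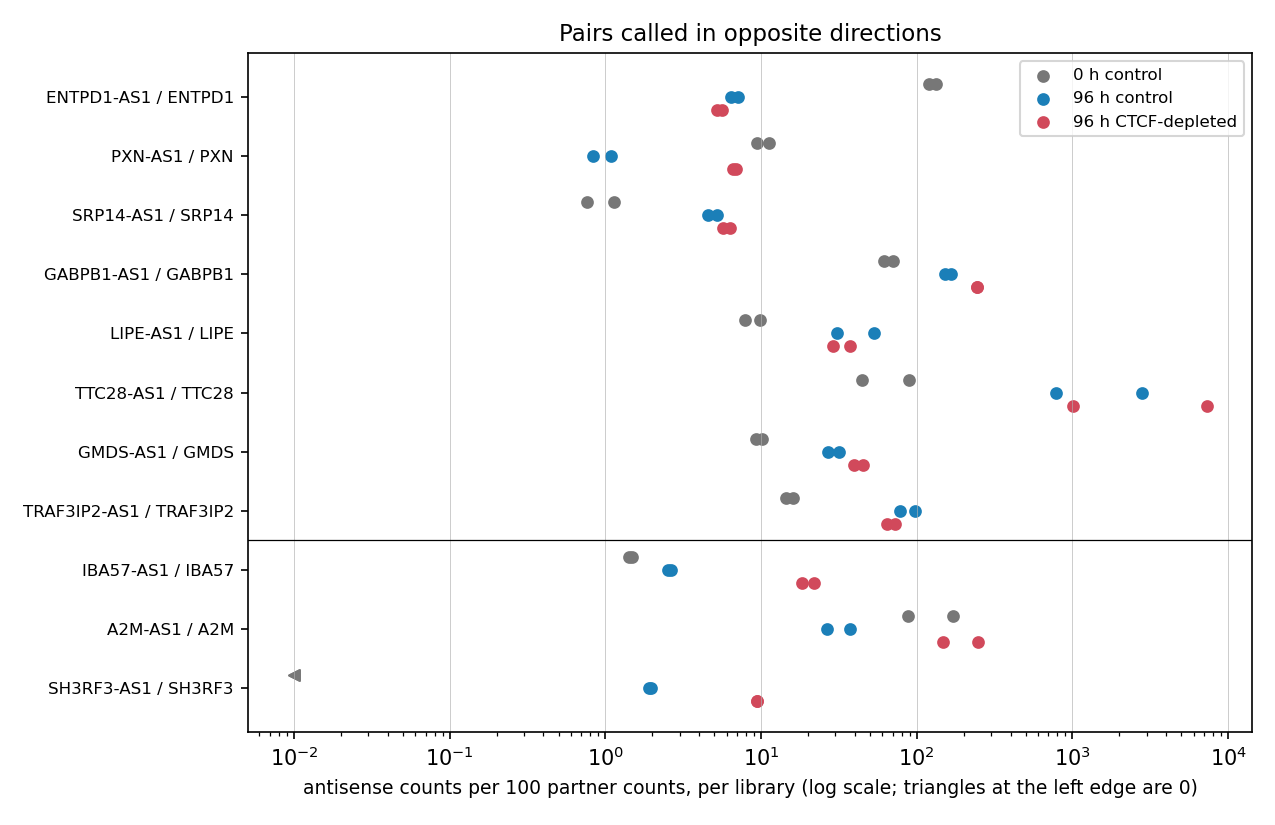
Antisense counts per 100 partner counts in each library (log scale) for the 8 pairs called in opposite directions at 96 h control against 0 h (above the line) and the 3 pairs called so after CTCF depletion (below the line). Each point is 1 library; in every pair above the line, the 0 h libraries lie apart from the 96 h control libraries.

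The comparison of 96 h CTCF-depleted with 96 h control cells asks which antisense RNAs changed when CTCF was depleted from the start of transdifferentiation. More antisense RNAs rose than fell: 24 rose (11.7%) and 8 fell (3.88%), whereas over all genes tested 5.41% rose and 7.03% fell. Of the 186 partners tested, 6 rose and 12 fell. The median log2 fold change was 0.11 for the antisense RNAs, -0.02 for the partners and -0.03 over all genes. Most of the rising antisense RNAs were scarce. Some, among them IBA57-AS1, ATE1-AS1 and GATA6-AS1, averaged under 10 counts without the CTCF-depleted libraries. Such members met the rule only through the group in which they were high, so their rise is not independent of the selection. Of 113 with a mean count below 50, 18 rose and 2 fell, compared with 7.5% and 5.77% of all genes with a mean count of 10 to 50, while of 93 with more counts 6 rose and 6 fell (4.93% and 7.58% of all such genes). The libraries did not overlap for 81 members that were higher (39.3%) and 42 that were lower (20.4%), compared with 30.1% and 37.8% of all genes. Fewer antisense RNAs were called as rising when either 96 h control library was left out, and fewer as falling without 96 h control replicate 2. With DESeq2, 10 antisense RNAs rose and 5 fell, compared with 2.59% and 3.34% of all genes tested in that fit. In all, 10 rising and 5 falling antisense RNAs were called in all 9 alternative fits, and they are described first.

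WEE2-AS1 changed most. It had 1.96 and 1.35 CPM at 0 h, 0.441 and 0.0926 CPM in 96 h control and 10.6 and 10.5 CPM in CTCF-depleted cells (19, 18, 5, 1, 115 and 114 counts). The CTCF-depleted libraries lie far above both other groups, and the log2 fold change against 96 h control was 5.23 ± 0.38 (adjusted p = 1.5e-17). Its start lies past the end of WEE2, an oocyte kinase gene that had 1 count in all libraries together (chr7:141704003-141738346, minus strand). NDUFA6-AS1, whose start is 161 bases from NDUFA6, a gene of respiratory complex I, had 1.86 and 2.18 CPM at 0 h, 0.794 and 0.926 CPM in 96 h control and 7.41 and 7.92 CPM in CTCF-depleted cells. It rose by 3.14 ± 0.32 (adjusted p = 2.7e-12) and went from 2.66 to 32.0 counts per 100 NDUFA6 counts. NDUFA6 had 33.7 and 30.7 CPM and then 24.7 and 23.2 CPM, with a log2 fold change of -0.43 ± 0.09 that missed the fold threshold. The difference between the genes was 3.57 ± 0.33 log2 units and their exons do not overlap.

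PXN-AS1 rose by 2.67 ± 0.29 (adjusted p = 1.5e-11), with 7.78 and 7.92 CPM in CTCF-depleted cells, above its level in both other groups. PXN had 117 and 115 CPM there and was not called (-0.13 ± 0.06). ATE1-AS1, which starts 745 bases from the arginyltransferase gene ATE1, rose by 1.99 (11 and 11 counts without IAA, 38 and 48 with it) and ATE1 was at -0.23. SH3RF3-AS1 rose from 2.38 and 2.5 CPM to 7.69 and 7.46 CPM, by 1.63 ± 0.26 (adjusted p = 6.7e-07), while SH3RF3 went from 126 and 128 CPM to 81.6 and 78.9 CPM and fell by 0.66 (SE of 0.07, adjusted p = 7.1e-12). ZBTB11-AS1 rose by 1.33 ± 0.21 and MORF4L2-AS1 by 1.32, the partners being a zinc finger factor gene and a chromatin regulator gene that were not called. KIF25-AS1 had 15.9 and 16.6 CPM in 96 h control and 39.8 and 37.1 CPM in CTCF-depleted cells and rose by 1.24 ± 0.11 (adjusted p = 1.6e-14); the kinesin gene KIF25 was at -0.10 ± 0.28. GABPB1-AS1 rose by 0.73 ± 0.08, from 54.4 and 61.1 CPM to 92.5 and 99.6 CPM, and GABPB1 was at 0.12 ± 0.08. ITGB2-AS1 rose by 0.63 ± 0.06 (adjusted p = 4.3e-12), and ITGB2 was at 0.10 ± 0.05.

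The 5 that fell in all fits ranged in 96 h control cells from DHRS4-AS1, the scarcest, to HNRNPU-AS1. HNRNPU-AS1 had 204 and 209 CPM in 96 h control and 131 and 131 CPM in CTCF-depleted cells and fell by 0.66 (SE of 0.06, adjusted p = 8.2e-15), with HNRNPU at -0.33 ± 0.05. TMPO-AS1 went from 45.6 and 44.4 CPM to 21.4 and 25.4 CPM, near its 0 h libraries (28.1 and 20.2 CPM), and fell by 0.94 (SE of 0.10, adjusted p = 2.3e-11). TMPO had 1007 and 1003 CPM and then 1082 and 1085 CPM, with a log2 fold change of 0.11 ± 0.04. C1RL-AS1 fell by 0.67 (SE of 0.10) from 34.3 and 36 CPM to 21.8 and 22.6 CPM, with C1RL at -0.42 ± 0.10. CDKN2B-AS1 fell by 0.94 (SE of 0.15, adjusted p = 1.1e-06) from 16.8 and 17.9 CPM to 8.98 and 9.03 CPM. DHRS4-AS1, which starts 1342 bases from the dehydrogenase gene DHRS4, fell by 1.51 (SE of 0.24, adjusted p = 4.0e-07) from 8.03 and 7.22 CPM to 2.22 and 3.13 CPM, with DHRS4 at -0.15 ± 0.18. The 96 h control libraries are part of both comparisons, so the values of the 2 comparisons are not independent.

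**Figure D4:**
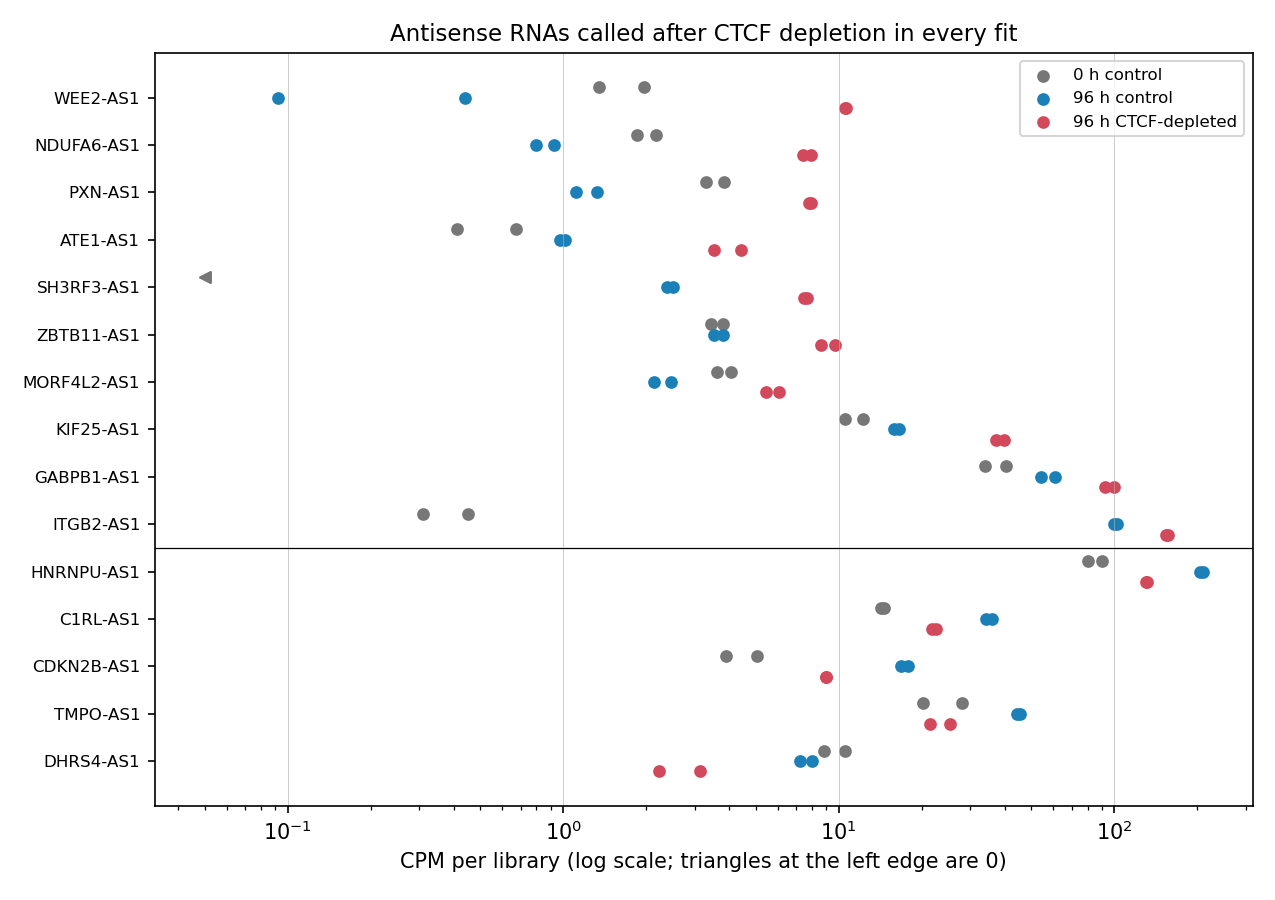
CPM of each library (log scale) for the 10 antisense RNAs that rose (above the line) and the 5 that fell (below the line) after CTCF depletion in the main fit and in all 9 alternative fits. The red points of CTCF-depleted cells lie to the right of the blue points of 96 h control cells in the upper part and to the left in the lower part, without overlap.

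The remaining calls had few counts or lost significance in some fits. IBA57-AS1 rose by 2.26 ± 0.46 from 6 counts in each 96 h control library to 31 and 26 with IAA. KCNJ2-AS1 rose by 1.63 ± 0.42, with 0.883 and 0.741 CPM in control and 3.33 and 1.75 CPM in CTCF-depleted cells, and was called in 5 of 9 alternative fits; KCNJ2 was at 0.53 ± 0.09. C1QTNF9B-AS1 rose by 2.04 ± 0.48, CD27-AS1 by 0.62 ± 0.18 and MAP3K14-AS1 by 1.21 ± 0.39. MATN1-AS1, FUT8-AS1, DNAH17-AS1, TIPARP-AS1, BRE-AS1, SEC24B-AS1, PSMG3-AS1, A2M-AS1 and GATA6-AS1 complete the list of 24. Among the falling antisense RNAs, ZBED3-AS1 (-1.74 ± 0.46), STXBP5-AS1 (-1.57 ± 0.49) and MCM3AP-AS1 (-0.80 ± 0.24) were not called without 96 h control replicate 1 or 2 or with DESeq2.

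After CTCF depletion, most antisense RNAs that were called had a partner that was not. Few partners were called at all: 3.23% of those tested rose and 6.45% fell, compared with 5.41% and 7.03% of all genes. Of the 24 antisense RNAs that rose, 16 had a partner that was not called, 4 a partner with too few counts, 3 a partner that fell and 1 a partner that rose. Of the 8 that fell, 7 partners were not called and 1 could not be tested. Pearson's r between the log2 fold changes was 0.12 (rho of 0.19) over 186 pairs, and 0.08 over the 103 pairs with neighbouring start sites. With few partners called and 113 members below a mean count of 50, these values cannot be set against those for transdifferentiation. The pair that rose together was GATA6-AS1 and GATA6, a zinc finger transcription factor: its antisense RNA had 8 and 12 counts without IAA, 28 and 23 with it (log2 fold change of 1.37 ± 0.44, adjusted p = 0.0092), and GATA6 rose by 1.22. The antisense call was lost when any 1 of the 4 libraries compared was left out. The 3 pairs called in opposite directions all had a rising antisense RNA. SH3RF3 is given above, and its antisense RNA went from 1.93 to 9.44 counts per 100 partner counts. IBA57, a factor of iron–sulfur cluster assembly, fell by 0.68 (SE of 0.12, adjusted p = 7.6e-06) from 20 and 22.1 CPM to 13.1 and 13.1 CPM, while 2.58 antisense counts per 100 became 20.1. The protease inhibitor gene A2M went from 3.53 and 4.91 CPM to 1.39 and 1.93 CPM and fell by 1.33 (SE of 0.33), while A2M-AS1 rose by 1.25 ± 0.36. A single opposite pair (1) was left without 96 h control replicate 2 and also with DESeq2, and both genes of the SH3RF3 pair were called in all 9 fits. Exons overlap in the A2M pair and not in the other two.

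**Figure D5:**
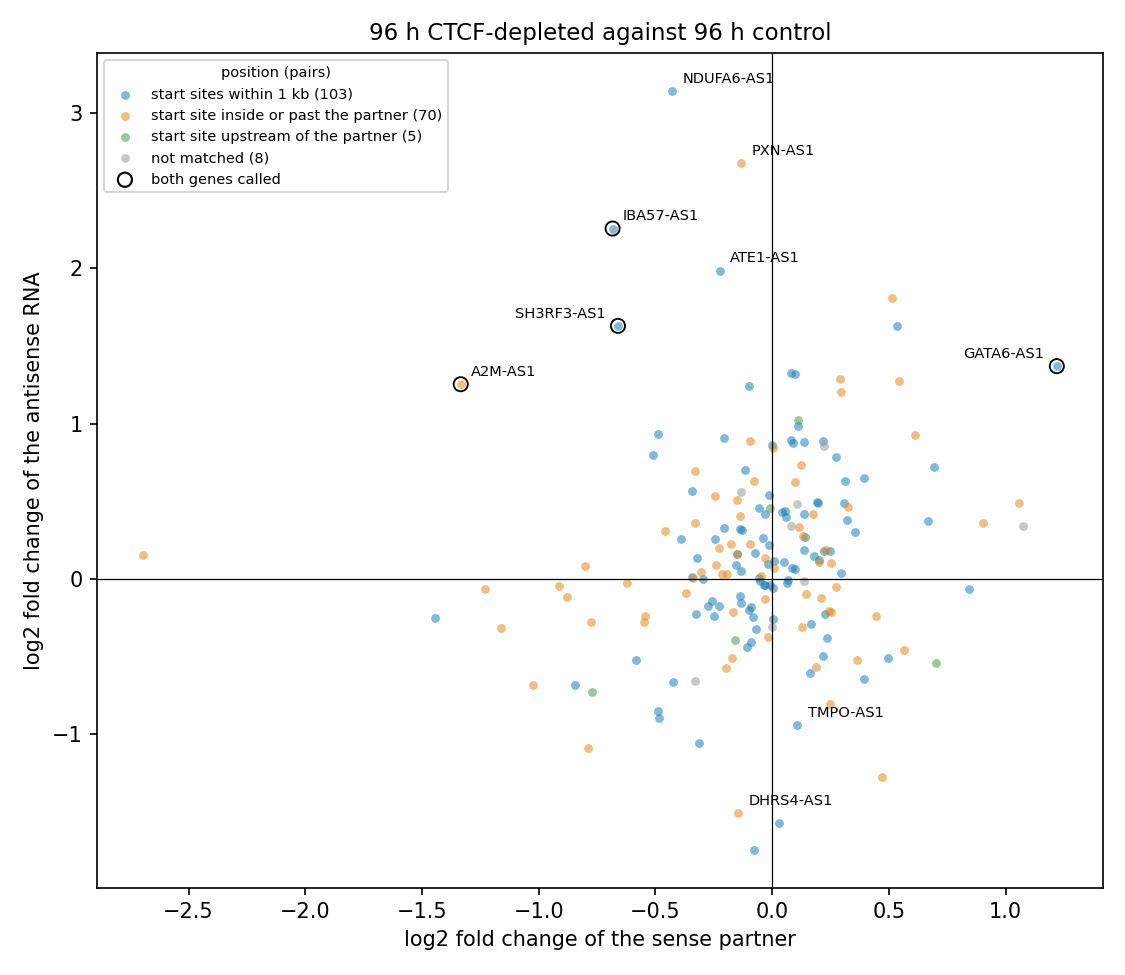
Log2 fold change of antisense RNA (vertical axis) and of sense partner (horizontal axis) in 96 h CTCF-depleted against 96 h control cells, for 186 pairs with a tested partner, coloured by position. Circles mark the 4 pairs with both genes called; most antisense RNAs with large changes lie near 0 on the axis of the partner.

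The members were also counted by lists of partners, named after the role of most of their genes, against 25.4% of all genes that rose and 22.9% that fell during transdifferentiation and 5.41% and 7.03% after CTCF depletion. The lists hold 6 to 12 members, and no list was tested against these shares. The 9 members of the immune and leukocyte list had 5 that rose and none that fell during transdifferentiation (C1RL-AS1, GAS6-AS1, IL10RB-AS1, ITGB2-AS1 and TRAF3IP2-AS1), with a median log2 fold change of 0.94. After CTCF depletion 3 of them rose (CD27-AS1, A2M-AS1 and ITGB2-AS1) and 1 fell (C1RL-AS1). This list also holds SLC16A1-AS1, over a monocarboxylate transporter gene, and TAPT1-AS1, over a transmembrane protein gene, whose partners are not immune genes and which were not called. Of 8 members over genes of cell division and DNA, 2 rose and 2 fell during transdifferentiation, and 2 rose (KIF25-AS1 and WEE2-AS1) and 3 fell (TMPO-AS1, MCM3AP-AS1 and CDKN2B-AS1) after CTCF depletion. None of their 6 tested partners was called in the second comparison. Of 12 members over transcription and chromatin genes, 2 rose and 2 fell and then 2 rose and none fell. Of 11 over trafficking, adhesion and signalling genes, 2 rose and 2 fell and then 3 rose (PXN-AS1, MAP3K14-AS1 and SH3RF3-AS1). The list named for mitochondria and metabolism has 6 members, of which none rose and 2 fell (NDUFA6-AS1 and ACVR2B-AS1, the latter over the activin receptor gene, which does not have that role) and then 1 rose (NDUFA6-AS1) and 1 fell (DHRS4-AS1). Of 6 over RNA and ribosome genes, 2 rose and none fell and then 1 fell. The other 154 members had 33 that rose and 18 that fell, and then 13 and 2. CEBPA-AS1, the member next to the factor that drives the conversion, had 4.95 and 2.55 CPM at 0 h, 5.47 and 3.8 CPM in 96 h control and 6.39 and 6.17 CPM in CTCF-depleted cells and was not called in either comparison. CEBPA, at 290 to 336 CPM in all libraries, is also expressed from the construct, which the count row does not separate.

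Rows of related naming classes were few. Of 23 tested rows ending in -IT1 (transcripts from introns), 7 rose and 3 fell during transdifferentiation and 1 rose and 2 fell after CTCF depletion. Of 10 tested rows ending in -AS2, 5 rose and 2 fell and then 1 rose and 1 fell. The 20 tested -AS1 rows outside the rule had 5 that rose and 5 that fell, and then 2 that rose and none that fell.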

How the data were processed

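RNA-seq was analysed in 6 libraries, 2 for each of 3 conditions. The count values are raw counts per gene symbol, as the authors deposited them: the methods name the nf-core/rnaseq workflow with alignment to hg38 by STAR 2.6.1d, and counting by featureCounts 2.0.6 over protein-coding exons, although the table also lists antisense genes. The strand setting and the annotation release of the counting are not given in the sources used here. Members and gene lists were chosen with earlier results of these data known.

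The test was edgeR 4.0.16 in R 4.3.3 (filterByExpr, TMM, quasi-likelihood F-test, all 6 libraries, condition as the only term), with Benjamini-Hochberg adjustment over all 14758 genes tested. CPM values were computed from TMM-scaled library sizes. The fit was tested on simulated data with known changes. Standard errors (SE) were derived from each F statistic and its log2 fold change, and the difference within a pair from its log2 fold changes, with the SEs combined and no p. Positions, exon lengths and exon overlaps were taken from GENCODE release 44, matched by symbol or earlier symbol, start sites and promoter windows from RefSeq (GRCh38.p14) where both genes had one (143 pairs) and otherwise from GENCODE (53 pairs). Plots were made with matplotlib 3.10.9.

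Named genes were, per comparison, the 8 rising and the 8 falling members of smallest adjusted p, pairs called in opposite directions, the 5 most abundant members, the 5 with the highest ratio to the partner, members of targeted promoters, members at the limit of the rule and called members of the lists. MMP24-AS1, SLFNL1-AS1, PAX8-AS1, EIF3J-AS1, TPT1-AS1 and PAXIP1-AS1 met this rule but are not described above. Other genes named (among them ATE1-AS1, MORF4L2-AS1, GATA6-AS1, EPHA1-AS1, BAIAP2-AS1, ZMIZ1-AS1 and the list of calls after CTCF depletion) and the motifs were chosen after their values were seen. The alternatives were RLE scaling, no filter on low counts, a replicate block, only the 4 libraries compared, leaving out each library in turn, DESeq2 1.42.0, other thresholds, a mean count of at least 50 and pairs without exon overlap. Replicates differed by more than sampling noise in each group (chi-square per degree of freedom of 1.75 to 2.80). RNA-seq reads without molecular identifiers are not independent molecules, so intervals (95%) and floors cover counting error only.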

Additional observations from a re-analysis of the deposited data

How the results depend on the processing

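With DESeq2, the numbers of called members and pairs that moved were 17 falling antisense RNAs and 5 opposite pairs during transdifferentiation, and after CTCF depletion 10 rising and 5 falling antisense RNAs, 3 rising partners, 0 pairs in 1 direction and 1 opposite pair. With an adjusted p below 0.05 and no fold threshold they were 45 falling antisense RNAs, 84 rising and 77 falling partners, 59 pairs in 1 direction and 29 opposite pairs during transdifferentiation, and 40 rising and 18 falling antisense RNAs, 29 rising and 50 falling partners, and 16 and 15 pairs after CTCF depletion. With an absolute log2 fold change above 1 they were 28 falling partners and 22 and 4 pairs in 1 and in opposite directions during transdifferentiation, and 3 falling antisense RNAs, 3 rising and 4 falling partners and 1 opposite pair after CTCF depletion. Over the 93 members with a mean count of at least 50 they were 23 and 11 antisense RNAs, 18 and 20 partners and 15 and 4 pairs during transdifferentiation, and 6 rising antisense RNAs, 1 and 3 partners and 0 and 0 pairs after CTCF depletion. Over the 61 pairs without exon overlap, from which the 10 members with no position were also left out, they were 16 and 7 antisense RNAs, 13 and 15 partners and 13 and 3 pairs, and then 4 and 1 antisense RNAs, 1 and 4 partners and 0 pairs in 1 direction. The last 2 settings hold fewer members by construction, and for the other settings the cause was not tested. Of all genes tested with DESeq2, 15.55% rose and 13.79% fell during transdifferentiation, and 2.59% and 3.34% after CTCF depletion. With an adjusted p below 0.05 these shares were 38.03% and 37.27%, and then 16.09% and 22.56%. With an absolute log2 fold change above 1 they were 18.59% and 14.06%, and then 2.77% and 2.95%.

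Leaving out 1 library gave 37 to 40 rising and 20 to 24 falling antisense RNAs, 50 to 53 and 42 to 46 partners, 26 to 31 pairs in 1 direction and 5 to 8 opposite pairs during transdifferentiation, and 11 to 17 and 5 to 7 antisense RNAs, 4 to 6 and 9 to 12 partners, 0 to 0 pairs in 1 direction and 1 to 2 opposite pairs after CTCF depletion. The differences between replicates 1 and 2 correlated across genes by -0.0194, 0.0109 and -0.0294 between the groups, which gives no sign of pairing by replicate number. Counting noise is part of these differences, so they cannot exclude pairing, and the labels do not state it. With the replicate number as a block, 46 antisense RNAs rose and 25 fell during transdifferentiation and 21 rose and 8 fell after CTCF depletion, with 0 pairs in 1 direction. RLE scaling, no filter and a fit of only the 4 libraries moved none of these counts by over 1.5 times. No log2 fold change of a named gene that was called in either of the fits compared changed sign, whereas several that were not called did (CEBPA-AS1 during transdifferentiation ranged from -0.13 to 0.86), and under the alternatives 1666 of their values kept their side of the thresholds, 67 lost the call and 8 gained one. Low counts limit the precision: 113 members had a mean count below 50, and 5 had at most 3 counts in both 0 h libraries.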
